A study of Rattus norvegicus with 11 samples.

Results

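The miR-15/16 family was followed in pancreatic islets of Sprague-Dawley rats. Islets are the hormone-secreting parts of the pancreas and consist mostly of insulin-producing beta cells. Small RNA was sequenced from islets of rats at postnatal day 10 (P10, suckling pups, 5 libraries) and of male rats at 3 months (adult, 6 libraries). All animals are labelled as controls, with no treatment or transgene. The labels give the sex of the adults only, so effects of age and of sex cannot be told apart. The members were the sense-strand rows of miR-15a, miR-15b, miR-16, miR-195 and miR-497 in the deposited count table. This gave 7 of 950 rows: both arms of miR-15b, miR-16 and miR-195, and the 5p arm of miR-497. No row matched miR-15a, which was not analysed here. Of the 7 arms, 6 passed the filter on low counts and were tested, and miR-16-3p did not pass it.

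A microRNA is cut from a hairpin precursor whose sides give a 5p and a 3p arm, and the arm that stays in the silencing complex pairs with messenger RNAs mainly through its seed, bases 2 to 8. The 5p arms of miR-15, miR-16, miR-195 and miR-497 share 1 seed and are known for repressing cyclins, cyclin-dependent kinases and the survival factor Bcl2, and so for restraining cell division. Beta cells of young rodents divide more often than those of adults, and miR-195 is known to rise after birth in the mouse heart.

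The genes lie in 2 pairs. miR-15b-5p (chr2:184967060-184967081) and miR-16-5p (chr2:184967206-184967227), both on the plus strand of Rnor_5.0, start 146 bases apart. In RefSeq their genes overlap Smc4, which encodes a condensin subunit needed for chromosome packing. miR-497-5p (chr10:56589142-56589163) and miR-195-5p (chr10:56589479-56589499), also on the plus strand, start 337 bases apart, and RefSeq lists no other gene over them. The sources used here do not say whether these positions are exonic or intronic. The 5p arms are shown because the shared seed (bases 2 to 8, in capitals) defines the family. miR-322-5p, from the X chromosome, is the only other rat sequence in the RefSeq table (GRCr8) with this seed.

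miR-15b-5p: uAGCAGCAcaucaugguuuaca
miR-16-5p: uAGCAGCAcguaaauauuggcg
miR-195-5p: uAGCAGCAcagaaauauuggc
miR-497-5p: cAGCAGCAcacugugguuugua
miR-322-5p: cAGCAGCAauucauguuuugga

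Compared from base 1, with the seed included, the member arms form 2 closer pairs. miR-16-5p and miR-195-5p, from different chromosomes, are identical at 19 of 21 bases and differ by G10A and U11G (miR-16-5p base first, counted from the 5′ end). miR-15b-5p and miR-497-5p are identical at 16 of 22 bases, while miR-15b-5p and its neighbour miR-16-5p share 14 of 22. miR-15b-5p is also identical to miR-322-5p, which is not a member, at 16 of 22. Nothing in the sources used here says how reads of such similar arms were assigned. In mouse and human another copy of miR-16 lies beside miR-15a. The table lists miR-16 at 1 place only, so reads of such a copy could not be told apart. The 3p arms, shown because each lacks the family seed, carry seeds that differ from one another. Those of miR-16-3p and miR-195-3p share the bases CAAUAU, shifted by a single position.

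miR-15b-3p: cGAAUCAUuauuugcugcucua
miR-16-3p: aCCAAUAUuauugugcugcuu
miR-195-3p: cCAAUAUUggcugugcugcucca

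Library totals after 1 entry per name ranged from 1430412 to 4468745 counts, and levels below are in CPM, counts scaled to a common library size with TMM factors. The islet miRNA miR-375-3p was abundant in every library, at 113156 to 165984 CPM at P10 and 251238 to 325026 CPM in adults. Over all 457 features tested, 97 were higher and 135 lower in adults (edgeR's quasi-likelihood test, adjusted p under 0.05). With library totals alone the median log2 fold change shifted by -0.26 and 22.4% of the calls were higher, against 41.8% with TMM. With upper-quartile scaling the shift was 0.16 and 55.2% were higher. Mesenchymal marker miRNAs were lower in adults for 4 of 6 tested arms, with summed levels of 33246 to 61126 CPM at P10 and 17172 to 58287 CPM in adults. These sums were mostly miR-143-3p (30826 to 58741 CPM at P10 and 16849 to 57172 CPM in adults), which was not called. Acinar markers were higher for 2 of 3 (22.2 to 37.7 CPM and 28.6 to 127.1 CPM), islet endocrine markers for 9 of 14, and leukocyte markers were lower for 1 of 4 (681 to 1427 CPM and 249 to 832 CPM). No marker with a row was at 0 in every library. The listed markers miR-126 (endothelial), miR-148a, miR-199b, miR-214 and miR-486 were not analysed here. In bulk islets, fewer cells of a type and less RNA per cell cannot be told apart.

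miR-15b was the only member with arms called lower in adults by edgeR with TMM scaling. With all libraries, no adjusted pair test below told the change of its 5p arm apart from those of the others. miR-15b-5p stood at 144, 110.9, 131, 158 and 138 CPM in P10 replicates 1, 3, 4, 5 and 6. In adults its lowest, median and highest levels were 81.3, 87.8 and 112.6 CPM. The groups met at 1 point only, where P10 replicate 3 lay just below adult replicate 2. The P10 mean was 136 ± 17.3 CPM (SD, n = 5). The adult mean was 91.8 ± 12.1 CPM (SD, n = 6), 1.49-fold lower. Its log2 fold change was -0.57 with an SE of 0.14 (edgeR adjusted p = 0.00368). Under all 21 alternative settings miR-15b-5p kept its direction and its call, with log2 fold changes from -0.84 to -0.40 and adjusted p from 0.00102 to 0.0347. These ends came from scaling by library totals and by upper quartile, the settings that shifted the median of all features by -0.26 and 0.16.

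miR-15b-3p, the minor arm, also passed the test, but its call rested on few reads. It had 52, 4, 28, 20 and 31 counts in P10 replicates 1, 3, 4, 5 and 6 and between 4 and 12 counts in each adult library. In CPM these were 17.2, 2.69, 7.38, 5.70 and 6.44 at P10 and 2.04 to 5.08 in adults, with a median of 4.13. P10 replicate 1 was far above every other library, and P10 replicate 3 lay inside the adult range. The log2 fold change was -1.04 with an SE of 0.40 (edgeR adjusted p = 0.0414). Without P10 replicate 1 it was -0.59 (edgeR adjusted p = 0.116). Of the 21 alternatives, miR-15b-3p passed the filter in 15 and was called lower in 5. The call was also lost without adult replicate 3 (0.0622), adult replicate 4 (0.0633) or adult replicate 6 (0.0916), each an edgeR adjusted p.

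**Figure D1:**
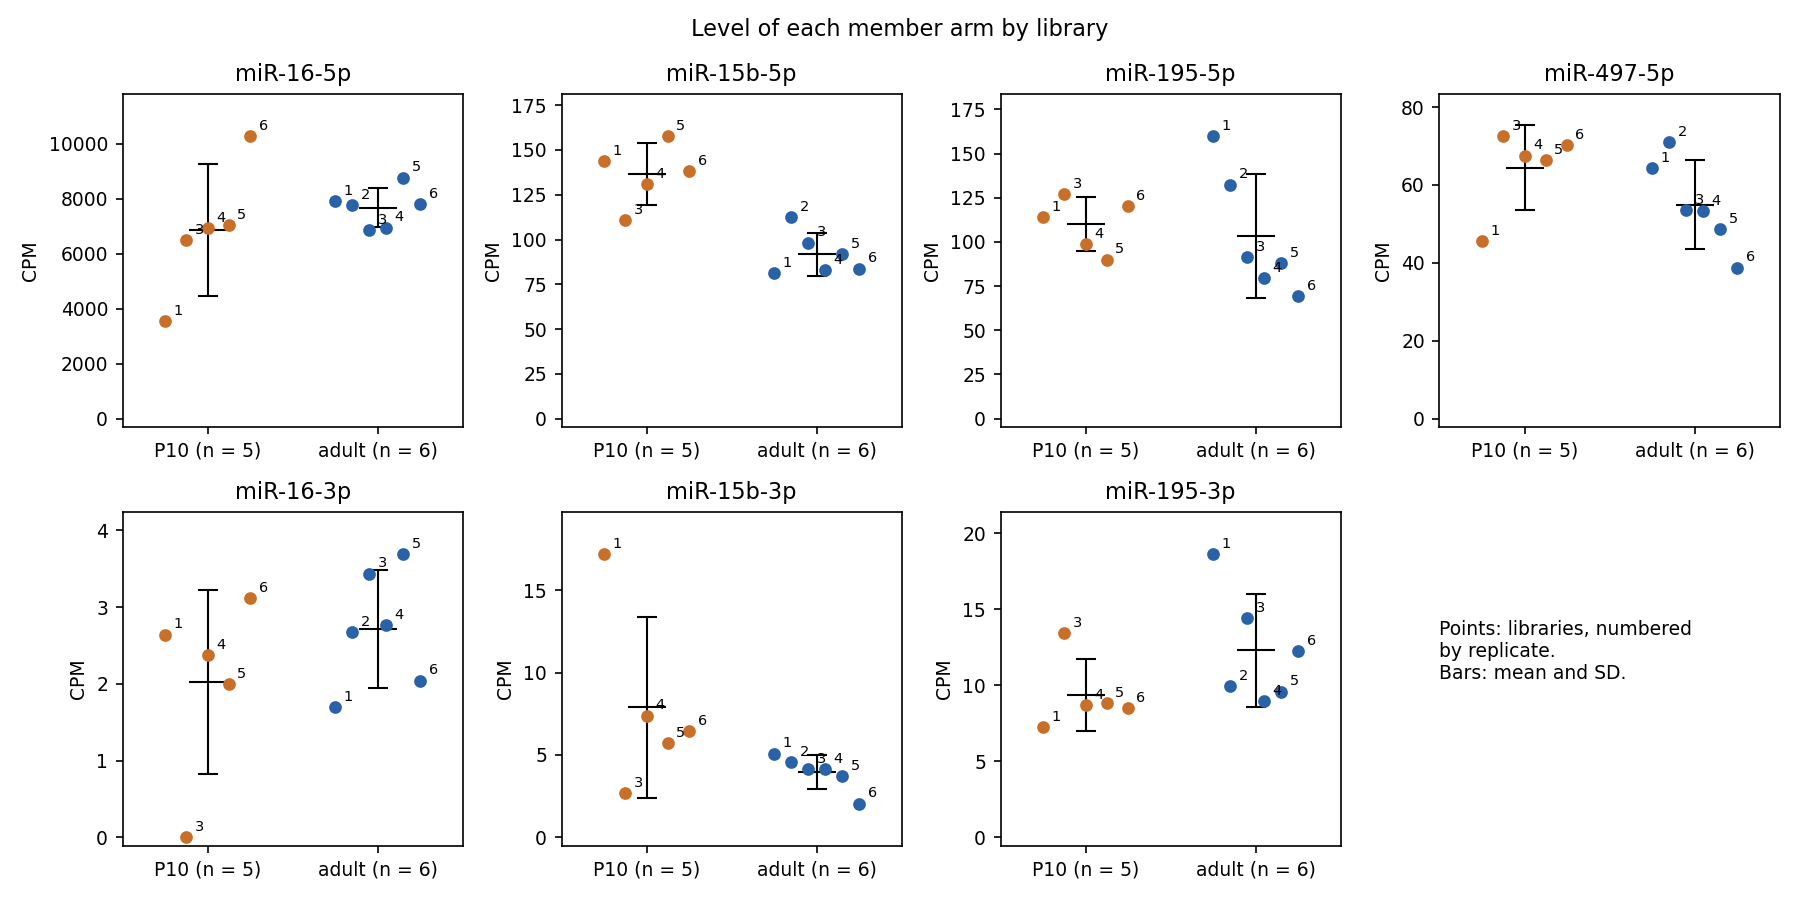
Level of each of the 7 member arms in CPM by library, with P10 libraries (n = 5) in orange and adult libraries (n = 6) in blue. Points are libraries numbered by replicate, and black bars are the mean and SD. miR-15b-5p lies at 110.9 to 158 CPM at P10 and 81.3 to 112.6 CPM in adults, while miR-16-5p spreads from 3557 to 10285 CPM at P10.

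miR-16-5p was by far the most abundant member, and no age difference in it passed the test. Its levels at P10 were 3557, 6488, 6935, 7046 and 10285 CPM in replicates 1, 3, 4, 5 and 6. In adults they ran from 6856 to 8763 CPM, with a median of 7776. The adult range lay wholly inside the P10 range. The P10 mean was 6862 ± 2388 CPM (SD, n = 5) and the adult mean 7672 ± 702 CPM (SD, n = 6). The log2 fold change was 0.16 with an SE of 0.20 (edgeR adjusted p = 0.507). Its sign turned with library totals alone (-0.09) and without P10 replicate 1 (-0.0040), and no setting gave an adjusted p under 0.05. The lowest was 0.103 by edgeR, without P10 replicate 6.

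The libraries of miR-16-5p were spread further at P10 than in adults, with no test of the difference in spread. On the log2 CPM scale its SD was 0.55 at P10, above 89.0% of the 227 features averaging at least 50 CPM, and 0.13 in adults, above 16.7% of them. Without P10 replicate 1 the P10 SD was 0.30. At P10, replicate 1 was lowest and replicate 6 highest. Red blood cells are rich in miR-16 and miR-451. The erythroid marker list held 24.2 to 72.3 CPM at P10 and 14.5 to 63.7 CPM in adults, and 0 of its 2 tested arms were called by edgeR (0 also at an unadjusted p under 0.05). P10 replicate 1, lowest in miR-16-5p, was highest of all libraries in miR-451-5p, at 69.0 CPM. The part of these cells in the result was not tested.

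miR-16-3p was close to the detection limit. It had 8, 0, 9, 7 and 15 counts in P10 replicates 1, 3, 4, 5 and 6, and 2 to 10 counts in each adult library. The 0 in P10 replicate 3 allows up to 2.02 CPM (3 counts). The other libraries lay at 1.69 to 3.69 CPM. In the fit with no filter its log2 fold change was 0.36 with an SE of 0.44 (edgeR adjusted p = 0.554).

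miR-195 and miR-497, the neighbours on chromosome 10, did not pass the test in any of their 3 counted arms. miR-195-5p stood at 114, 127, 98.9, 90.0 and 120 CPM in P10 replicates 1, 3, 4, 5 and 6. In adults its lowest, median and highest levels were 69.4, 89.8 and 160 CPM. In adults 4 of the 6 libraries lay at 69.4 to 91.4 CPM, and replicates 1 and 2 lay above every P10 library. The log2 fold change was -0.09 with an SE of 0.21 (edgeR adjusted p = 0.724). It turned to 0.06 with upper-quartile scaling and 0.013 without adult replicate 6, and passed under none of the 21 settings. miR-195-3p stood at 7.27 to 13.4 CPM at P10 and 8.98 to 18.6 CPM in adults, on 13 to 41 counts a library, with a log2 fold change of 0.40 and an SE of 0.24 (edgeR adjusted p = 0.180).

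miR-497-5p was the least abundant 5p arm. Its levels were 45.6, 72.6, 67.5, 66.4 and 70.2 CPM in P10 replicates 1, 3, 4, 5 and 6, and 38.8 to 71.0 CPM in adults, with a median of 53.4. P10 replicate 1 stood apart from its group, below 5 of the 6 adult libraries. The log2 fold change was -0.23 with an SE of 0.18 (edgeR adjusted p = 0.294). With library totals alone it passed as lower (-0.48, adjusted p = 0.0264), a setting that moved the median of all features to -0.37. With upper-quartile scaling it was -0.07.

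Among adult libraries the order of miR-195-5p was the same as that of 2 of the 6 mesenchymal marker arms, miR-143-3p and miR-145-3p, and differed from that of miR-143-5p, miR-145-5p and both arms of miR-199a. Replicate 1 of the adults was highest in miR-195-5p (160 CPM) and in miR-143-3p (57172 CPM), the most abundant of the markers. Replicate 6 was lowest in both (69.4 CPM and 16849 CPM), and replicates 2, 3, 5 and 4 followed replicate 1 in the same order. At P10, replicate 3 was highest in both (127 CPM and 58741 CPM), but the lowest libraries were replicate 5 for miR-195-5p and replicate 1 for miR-143-3p. With age both arms of miR-199a were lower in adults (log2 fold changes -2.28 for 3p and -2.72 for 5p, edgeR adjusted p of 3.59e-05 and 6.11e-06), where miR-143-3p (-0.49, edgeR adjusted p = 0.174) and miR-195-5p did not pass. This comparison was chosen after the values were seen, and the part of mesenchymal cells in the levels of miR-195-5p was not tested.

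In all, 2 of the 6 tested members were called, where 50.8% of all tested features were. Both were lower in adults, where 29.5% of all tested features were lower, and 0 were higher, where 21.2% were. The 0 was the same for an unadjusted p under 0.05 in edgeR and for the adjusted calls of limma-voom and DESeq2. The median log2 fold change was -0.16 over the 6 members and -0.11 over all tested features. For none of the 6 were the CPM ranges of the ages apart, against 30.0% of all tested features.

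**Figure D2:**
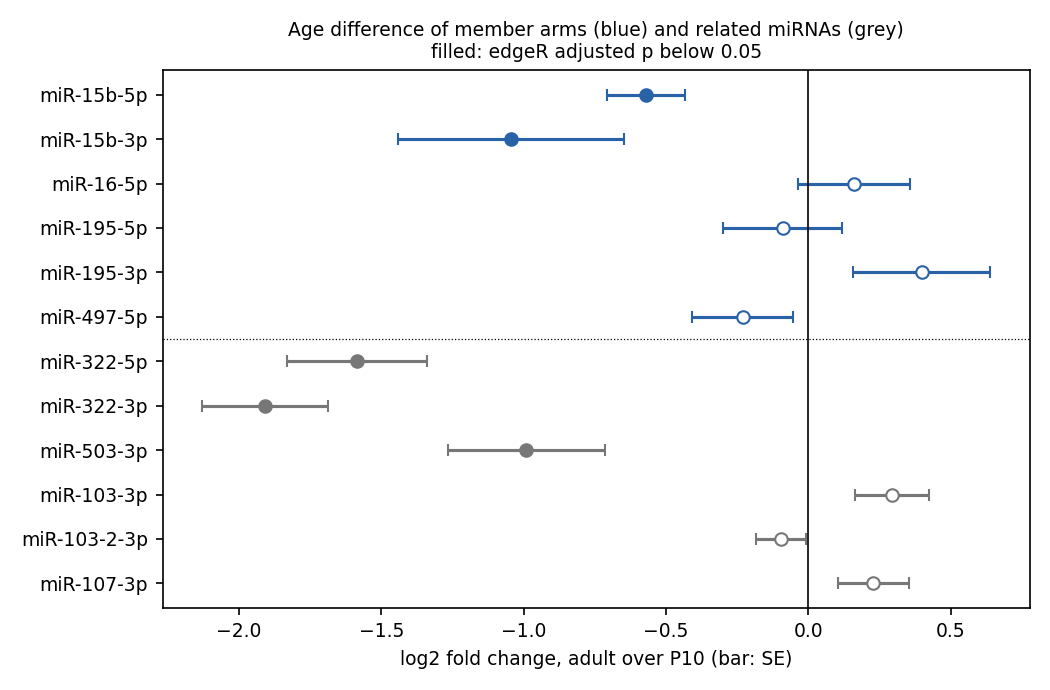
Log2 fold change of adult over P10 islets for the 6 tested member arms (blue) and 6 tested arms of related miRNAs (grey), with bars for the SE. Filled points passed edgeR's test at an adjusted p of 0.05. Both miR-15b arms are filled, at -0.57 and -1.04, and the miR-322 arms lie further left, at -1.58 and -1.91.

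Whether members changed by different amounts was tested on the ratio of 2 arms within each library, which needs no scaling. All 6 pairs of 5p arms were compared by a two-sided exact permutation test over 462 splits, whose smallest possible p is 0.00216. None passed after Benjamini-Hochberg adjustment over the pairs, and 1 had an unadjusted p under 0.05. That pair was the neighbours miR-15b-5p and miR-16-5p. There were 24.8, 58.5, 52.9, 44.6 and 74.4 counts of miR-16-5p per count of miR-15b-5p in P10 replicates 1, 3, 4, 5 and 6. In adults the ratio ran from 68.9 to 97.4. Only P10 replicate 6 reached into the adult range. The log2 ratio of miR-15b-5p to miR-16-5p was -5.58 ± 0.60 at P10 (SD, n = 5) and -6.38 ± 0.22 in adults (SD, n = 6). The difference was -0.80 (exact permutation p = 0.00866, adjusted p = 0.0519). Without P10 replicate 6 it was -0.96, with an adjusted p of 0.0286 by the same exact permutation test. Over the other single-library omissions it ran from -0.87 to -0.56, with adjusted p from 0.0857 to 0.143. With a library left out there are fewer splits, so the smallest possible p is larger than in the full test.

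For the neighbours miR-195-5p and miR-497-5p no age difference in the ratio passed the test. The ratio was 2.50, 1.75, 1.46, 1.36 and 1.71 counts of miR-195-5p per count of miR-497-5p in P10 replicates 1, 3, 4, 5 and 6, and 1.49 to 2.49 in adults. Replicate 1 was the highest of its age in both groups. The difference in log2 ratio was 0.09 (exact permutation p = 0.556, adjusted p = 0.556). Within an age the SD of this log2 ratio was 0.34 at P10 and 0.24 in adults, against 0.60 and 0.22 for miR-15b-5p to miR-16-5p, with no test of the spreads. The other 4 differences, between -0.43 and 0.47, had adjusted p from 0.156 to 0.319 by the same exact permutation test.

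**Figure D3:**
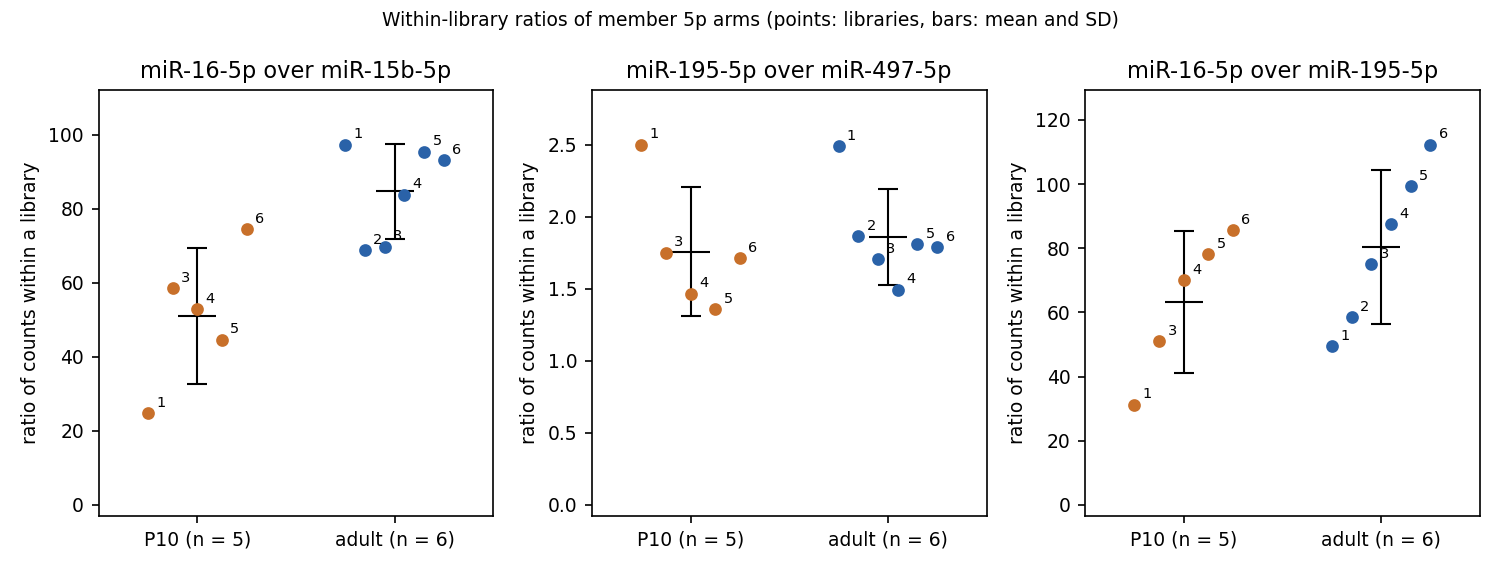
Ratio of counts within each library for 3 pairs of member 5p arms, with P10 libraries (n = 5) in orange, adult libraries (n = 6) in blue, points numbered by replicate and black bars for the mean and SD. The miR-16-5p to miR-15b-5p ratio is 24.8 to 74.4 at P10 and 68.9 to 97.4 in adults, while the miR-195-5p to miR-497-5p ratio covers 1.36 to 2.50 at P10 and 1.49 to 2.49 in adults.

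The 5p arm dominated each precursor with 2 counted arms, most strongly for miR-16. The 3p arm made up 0.0322% of the miR-16 reads at P10 and 0.0360% in adults, with the libraries of an age pooled. For miR-15b these shares were 5.51% and 3.96%, and for miR-195 7.54% and 10.2%. The log2 ratio of 5p to 3p was tested with limma over 239 precursors, of which 20.5% were called, and 0 of the 3 members' precursors were called (0 also at an unadjusted p under 0.05).

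Of the 3, miR-195 had the smallest p. Its 3p share was 5.99%, 9.57%, 8.09%, 8.93% and 6.62% in P10 replicates 1, 3, 4, 5 and 6, and ran from 6.97% to 15% in adults. The shares of adult replicate 6 (15%, 95% Wilson interval 10.3% to 21.3%) and adult replicate 3 (13.6%, 9.10% to 19.9%) were the highest, and adult replicate 2 lay inside the P10 range. The log2 ratio of 5p to 3p was 3.47 ± 0.29 at P10 (SD, n = 5) and 2.98 ± 0.42 in adults (SD, n = 6), a difference of -0.49 ± 0.25 (SE, limma adjusted p = 0.172). For miR-15b the difference was 0.14 ± 0.32 (SE, limma adjusted p = 0.797), and it turned to -0.16 without P10 replicate 1, whose 3p share was 10.7% (95% Wilson interval 8.24% to 13.7%). For miR-16 it was -0.24 ± 0.41 (SE, limma adjusted p = 0.737) and turned to 0.18 without P10 replicate 3, the library with no 3p read.

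**Figure D4:**
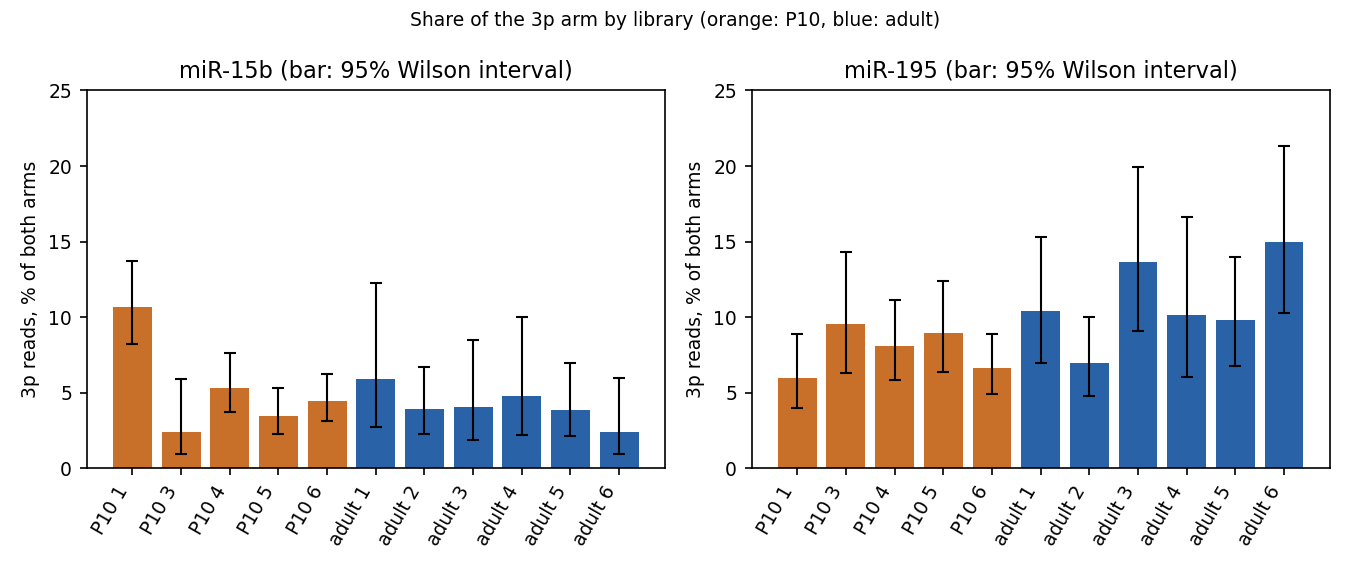
Share of the 3p arm among the reads of both arms, in percent, for miR-15b and miR-195 by library, with P10 in orange, adult in blue and error bars for the 95% Wilson interval, which covers counting error only. The miR-15b share is highest in P10 replicate 1 (10.7%), and the miR-195 share is highest in adult replicate 6 (15%).

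As a group, the 4 member 5p arms made up 0.786% ± 0.252 of the library counts at P10 (SD, n = 5) and 0.731% ± 0.0826 in adults (SD, n = 6). Libraries ran from 0.475% to 1.14% at P10 and from 0.641% to 0.858% in adults, so the adult range lay within the P10 range. The order of the means turned without miR-375-3p in the denominator (0.940% at P10 and 0.996% in adults) and without P10 replicate 6 (0.697% at P10). By mean CPM, miR-16-5p ranked 22 of 898 features at P10 and 19 in adults, and the other 5p arms ranked between 158 and 213. Ligation and PCR favour some sequences, so levels of different miRNAs are less comparable than those of 1 miRNA between libraries. In CPM, miR-16-5p stood above the other members in every library. miR-15b-5p and miR-195-5p overlapped at both ages. miR-497-5p lay below both at P10, and in adults it lay below miR-15b-5p and met the lowest library of miR-195-5p.

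Among the related miRNAs, 9 arms of miR-322, miR-503, miR-103 and miR-107 had a row and 6 were tested, of which 3 were lower, 0 higher and 3 not called. For the 0, edgeR gave 1 at an unadjusted p under 0.05, miR-103-3p. Over all tested features, 29.5% were lower and 21.2% higher. miR-322-5p, the seed-sharing arm of the X-linked cluster, stood at 188, 445, 365, 352 and 334 CPM in P10 replicates 1, 3, 4, 5 and 6 and at 69.8 to 149 CPM in adults. Its groups lay apart, as did those of 30.0% of all tested features. The log2 fold change of miR-322-5p was -1.58 with an SE of 0.24 (edgeR adjusted p = 0.000142). miR-503-3p had a log2 fold change of -0.99 with an SE of 0.27 (edgeR adjusted p = 0.00822). This call rested on few reads, at 3.30 to 6.07 CPM at P10 and 1.84 to 4.14 CPM in adults, so the groups overlapped. It has 2 rows with different counts, and the higher in each library was used. miR-503-5p, whose seed differs from the family seed in its last base, was at most at 1.34 CPM and was not tested. miR-103 and miR-107 carry the same core bases shifted by 1 position. Their log2 fold changes were -0.10 for miR-103-2-3p, 0.29 for miR-103-3p and 0.23 for miR-107-3p, with edgeR adjusted p of 0.373, 0.0719 and 0.141. The miR-103-2-3p row (chromosome 3) had means of 1531 CPM at P10 and 1432 CPM in adults. The miR-103-3p row (chromosome 10) was much less abundant, with means of 54.8 CPM and 67.3 CPM. How reads of miR-103 were divided between these rows is not stated.

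The makeup of the pool of RNAs with the family seed is given next. miR-16-5p held 90.8% ± 2.27 of the summed CPM of the 5 seed-sharing arms at P10 (SD, n = 5) and 95.5% ± 0.971 in adults (SD, n = 6). Its share ran from 87.9% to 94.0% at P10 and from 94.5% to 96.7% in adults, so the groups did not overlap. This holds for the pool with miR-322-5p, which is not a member. miR-322-5p held 4.64% ± 1.10 of the pool at P10 (SD, n = 5) and 1.40% ± 0.42 in adults (SD, n = 6). The share of miR-16-5p among the 4 member arms alone was not computed, and its own level did not pass the test of age. The other 4 arms together held 647 ± 96.1 CPM at P10 and 362 ± 79.6 CPM in adults, of which miR-322-5p was 51.1% and 30.6%. The summed CPM of all 5 arms was 7510 ± 2445 at P10 and 8034 ± 714 in adults. miR-322-5p has 2 rows with different counts, and the values above use the higher in each library. With rows summed, an alternative added after the data were seen, the other 4 arms held 844 ± 127 CPM at P10 and 437 ± 96.8 CPM in adults, of which miR-322-5p was 62.6% and 42.4%, and miR-16-5p held 88.3% and 94.6% of the pool. These sums are given as descriptions, with no test.

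**Figure D5:**
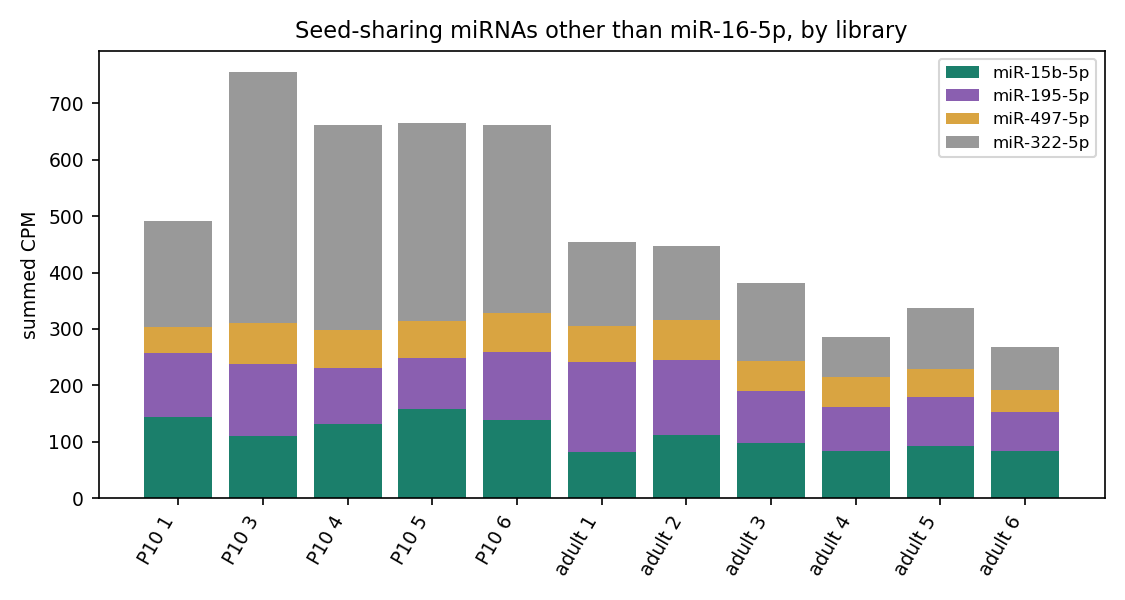
Summed CPM of the 4 seed-sharing arms other than miR-16-5p in each library, stacked by miRNA. The stack runs from 491 to 755 CPM at P10 and from 268 to 455 CPM in adults, and the grey part, miR-322-5p, is on average 51.1% of it at P10 and 30.6% in adults.

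The features most like each member were those whose log2 ratio to it varied least over the 11 libraries, among 223 other features averaging at least 50 CPM. Libraries of both ages entered this choice, so it favoured features with a similar age change. Their fold changes are thus given as descriptions and are no separate result. For miR-15b-5p these were miR-6331-3p (SD of the log2 ratio 0.19), miR-431-5p (0.20) and an antisense-tagged row of miR-3574-5p (0.20), against a median of 0.57 over the 223. The first and the second of them were also lower in adults (log2 fold changes -0.61 and -0.65, edgeR adjusted p of 0.000789 and 0.000245). For miR-16-5p they were miR-541-5p (0.19), miR-421-3p (0.19) and an antisense-tagged row of miR-3578-3p (0.20), none of which passed the test. For miR-195-5p the closest feature was miR-99a-5p (0.25), and for miR-497-5p it was miR-27a-3p (0.19). miR-361-5p was among the 3 closest to both miR-195-5p (0.26) and miR-497-5p (0.20). The remaining ones were antisense-tagged rows of miR-3557-5p for miR-195-5p (0.26) and of miR-3586-5p for miR-497-5p (0.21). Both rows were lower in adults (log2 fold changes -0.37 and -0.40, edgeR adjusted p of 0.0228 and 0.00514), while these members were not called.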

How the data were processed

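The values are raw read counts, which the authors deposited for each mature arm at each locus. The build is Rnor_5.0 per the file headers and rn5 per the submitters' processing notes. Those notes list edgeR and DESeq without saying what each did. No aligner or counting rule is given in the sources used here. Per the labels' protocols, Trizol-extracted total RNA went into a TruSeq small RNA kit. No molecular identifiers are stated, so intervals cover counting error only. Members and lists were chosen with earlier results of these data known.

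Each name entered once, with its highest count over rows in each library, giving 898 features. No member had more than 1 row. A filter (filterByExpr), TMM scaling and a robust quasi-likelihood test of age (edgeR 4.0.16, R 4.3.3) were run over all 11 libraries, with Benjamini-Hochberg adjustment over 457 features. Arm ratios were tested with limma 3.58.1 (prior count 2). Other alternatives used DESeq2 1.42.0 and limma-voom. The steps were tested on simulated data. At this depth 1 count is 0.208 to 0.846 CPM. Counts of same-age libraries differed beyond sampling noise for every pair (chi-square per degree of freedom at least 11.7). The labels call them biological replicates and do not say whether animals were pooled, so p-values measure the spread between these libraries. Named were all members, the related seeds miR-322, miR-424 (which had no row), miR-503, miR-103 and miR-107, and the 3 closest features by log2 ratio. RefSeq sequences (GRCr8) were taken by name, and for all 7 members their length equalled that of the listed position. The bases themselves were not compared.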

Additional observations from a re-analysis of the deposited data

Results flagged for a closer look

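Of 34 groups of values tested, 2 had a sample far from the others, where chance flags about 1 in 20. miR-195-3p was at 13.4 CPM in P10 replicate 3, above the next highest P10 library at 8.83 CPM. That value rested on 20 counts (95% Poisson interval 12.2 to 30.9 counts) in the P10 library with the lowest total, so its counting error is wide. miR-497-5p was at 45.6 CPM in P10 replicate 1, below the next lowest P10 library at 66.4 CPM.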

How the results depend on the processing

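The fit over all features was repeated under 21 alternatives, and miR-15b-5p was called lower in each. The number of members called lower, 2, was 1 with DESeq2 size factors, upper-quartile scaling, limma-voom, DESeq2, the replicate block, a filter at 10 mean CPM and no filter, and 1 to 2 when single libraries were left out, in each case through miR-15b-3p, which in 6 of the 21 fell below the filter. It was 3 with library totals alone, where miR-497-5p also passed (edgeR adjusted p = 0.0264). With library totals alone 54 features were higher, against 97. Sign changes, none past the threshold, were those of miR-16-5p (-0.087 with library totals alone, and -0.0040 to 0.35 over left-out libraries), miR-195-5p (0.063 with upper-quartile scaling, and -0.24 to 0.013 over left-out libraries), and the arm ratios of miR-15b (-0.16 to 0.34 over left-out libraries) and miR-16 (-0.57 to 0.18). The difference between miR-15b-5p and miR-16-5p ran from -0.96 to -0.56 over left-out libraries and passed only without P10 replicate 6. Fewer libraries leave fewer splits, so a pass was harder there than in the full test. Without miR-375-3p in the denominator the summed share of the 4 arms was 0.940% at P10 and 0.996% in adults, against 0.786% and 0.731%, which turned the order of the ages, as did leaving out P10 replicate 6 (0.697% at P10). The causes were not tested, apart from the denominator and the filter.

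Replicate numbers are shared between the ages, but same-numbered libraries did not deviate together (correlations from -0.21 to 0.20, and 1 of 5 adult libraries correlated best with its own number). With the replicate block 93 features were higher and 112 lower, miR-15b-5p had a log2 fold change of -0.64 (edgeR adjusted p = 0.0124), and miR-15b-3p did not pass (0.0547). Depth limits the 3p arms most.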
